A study of Homo sapiens with 6 samples.

Results

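The snoRNA host non-coding genes are the long non-coding RNA genes whose introns or exons hold small nucleolar RNAs. They were taken as every gene whose symbol is SNHG followed by a number, together with GAS5 and DANCR. The annotation lists 30 such symbols, and 29 of them, with 250 transcripts, were present among the 63190 genes and 207167 transcripts measured. RefSeq lists all 29 as lncRNA genes, and 28 of them enclose at least 1 snoRNA or scaRNA by position. The exception was SNHG27, inside which the other annotation used here, GENCODE, places a SNORA70 copy. The levels came from RNA-seq of total, rRNA-depleted RNA of HEK293T-Rex cells, a derivative of the embryonic kidney line HEK293 (the name the labels give) in which doxycycline switches on integrated constructs. There were 2 groups of 3 libraries each. The D391N libraries, labelled as overexpressing the mutant, came from cells with a stably integrated DIS3L2 D391N construct that carries a Flag tag and that, by the study's methods, was switched on with doxycycline, in which the catalytic site of this 3′-to-5′ exoribonuclease is mutated. The control libraries came from control cells. Each condition was 1 cell line, so that the construct and the line cannot be told apart, and whether the control cells received doxycycline is not given in the sources used here. By the study's methods 3 RNA-seq libraries shared 1 sequencing lane. Which ones is not given, so that lane and condition may coincide. Nothing in the labels says that replicates were separate cultures, so the p-values below measure only the spread between these libraries.

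Box C/D snoRNAs guide 2′-O-methylation and box H/ACA snoRNAs guide pseudouridylation of ribosomal RNA, whereas their relatives, the scaRNAs, guide modification of spliceosomal snRNAs in Cajal bodies. In human cells most of them are cut out of introns, and the host gene supplies the transcription. The spliced RNA that is left over from a non-coding host often carries only short reading frames and, for several hosts including GAS5, is removed by nonsense-mediated decay on the ribosome. Many hosts have promoters of the terminal oligopyrimidine type, whose transcripts start with C followed by a run of pyrimidines, as ribosomal protein genes do.

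Of the tested hosts, 4 carried such a start in the RefSeq promoter windows, and their sequences are shown to give the shared element, beside that of SNHG22, the host with the lowest log2 fold change. The lines run from 30 bases before to 30 bases from the start site on the sense strand of GRCh38.p14, and capitals mark the C at the start with the C or T bases that follow it.
SNHG5, chr6:85678704-85678763, minus strand: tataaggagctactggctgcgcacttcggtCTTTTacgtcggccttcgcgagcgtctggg
SNHG12, chr1:28581844-28581903, minus strand: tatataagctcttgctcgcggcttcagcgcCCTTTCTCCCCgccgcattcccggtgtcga
SNHG19, chr16:2155329-2155388, minus strand: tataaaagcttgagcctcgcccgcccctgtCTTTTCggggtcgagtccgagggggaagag
SNHG32, chr6:31834886-31834945, plus strand: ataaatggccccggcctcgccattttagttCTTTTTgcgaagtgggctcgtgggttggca
SNHG22, chr18:49813993-49814052, plus strand: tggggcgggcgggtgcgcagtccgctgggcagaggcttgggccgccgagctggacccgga
A C at the start followed by at least 4 bases that are C or T was present in 5 of the 25 member windows found, the fifth being SNHG18, and in 4.07% of all 35116 promoter windows. TATAAA on the sense strand upstream of the start was present in 2 of 25, SNHG7 and SNHG19, against 6.8% of all windows. These matches depend on the exact start that RefSeq gives. No window was given for SNHG6, SNHG9, SNHG15 and SNHG25.

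The snoRNAs themselves are shown by 4 of the most abundant ones inside the hosts, 2 of each box family, because their levels are set beside those of their hosts further on. The sequences are from GENCODE transcripts with GRCh37 positions. Capitals mark TGATGA in the first 20 bases and CTGA in the last 20 bases of the C/D snoRNAs, and ACA in the last 10 bases of the H/ACA snoRNAs.
SNORD60 in SNHG19, chr16:2205024-2205106, minus strand: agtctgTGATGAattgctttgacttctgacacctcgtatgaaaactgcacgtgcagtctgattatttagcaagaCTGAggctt
SNORD104 in SNHG25, chr17:62223443-62223512, plus strand: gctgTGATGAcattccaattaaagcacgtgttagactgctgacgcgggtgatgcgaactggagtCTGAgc
SNORA71D in SNHG17, chr20:37062508-37062641, minus strand: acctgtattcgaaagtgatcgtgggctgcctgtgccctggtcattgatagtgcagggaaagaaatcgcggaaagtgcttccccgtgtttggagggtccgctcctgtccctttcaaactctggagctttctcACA
SNORA73B in SNHG3, chr1:28835071-28835274, plus strand: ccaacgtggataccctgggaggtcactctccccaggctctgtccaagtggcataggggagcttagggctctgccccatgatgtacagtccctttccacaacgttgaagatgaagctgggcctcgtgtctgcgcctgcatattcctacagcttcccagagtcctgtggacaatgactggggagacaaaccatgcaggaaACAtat
Both C/D boxes were found with these letters in 6 of the 8 tested SNORD members and in 51.5% of 390 annotated SNORD transcripts. The ACA was found in 7 of 8 tested SNORA members and in 72.9% of 399 annotated SNORA transcripts.

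Levels are in RPKM, reads scaled by transcript length and library size, as estimated by BitSeq for each transcript, and a gene level is the sum over its transcripts. The values hold no read counts. From the posterior variances, the libraries had between 19300000 and 32400000 assigned reads, with D391N replicate 2 the shallowest. DIS3L2 itself, construct reads included, was at 369, 467 and 512 RPKM in the D391N libraries and 11.8, 12.9 and 14.6 RPKM in the controls. Of 6 HEK293 markers, 5 averaged at least 1 RPKM and NEFM did not. Of 5 markers of other cell types, 3 averaged at least 1 RPKM. The highest of these 5, HBB, lay between 2.14 and 7.12 RPKM and the lowest, CDH5, between 0.145 and 0.223 RPKM. HBB and COL1A1, with means of 3.85 and 2.99 RPKM, exceeded the HEK293 marker PAX2, with a mean of 1.68 RPKM. The share of reads on transcripts shorter than 200 nt was 2.43%, 0.342% and 1.52% in D391N replicates 1, 2 and 3, and 2.89% to 3.18% in the controls. The D391N libraries were also less alike, with correlations across genes of 0.885 to 0.935 between them and 0.959 to 0.977 between controls.

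Of the 29 host genes, 25 averaged 1 RPKM or more across the 6 libraries and were tested among 20714 genes. At this level 1 host fell, SNHG22, and no host rose, in limma with an adjusted p under 0.05. The same test called 29 of all genes (0.14%). Without adjustment, 7 of 25 hosts (28%) had p under 0.05, all of them lower in D391N, against 22.7% of all genes. The 25 hosts had a median log2 fold change of -0.43, with 18 negative and 7 positive, and all genes tested had a median of -0.09. Scaling each library to a common median moved the median of all genes from -0.09 to 0.13 and that of the hosts to -0.21. In 10 of 25 hosts (40%) every D391N library lay below every control library, against 20.7% of all genes. In 1 host every D391N library lay above, against 10.5% of all genes.

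**Figure D1:**
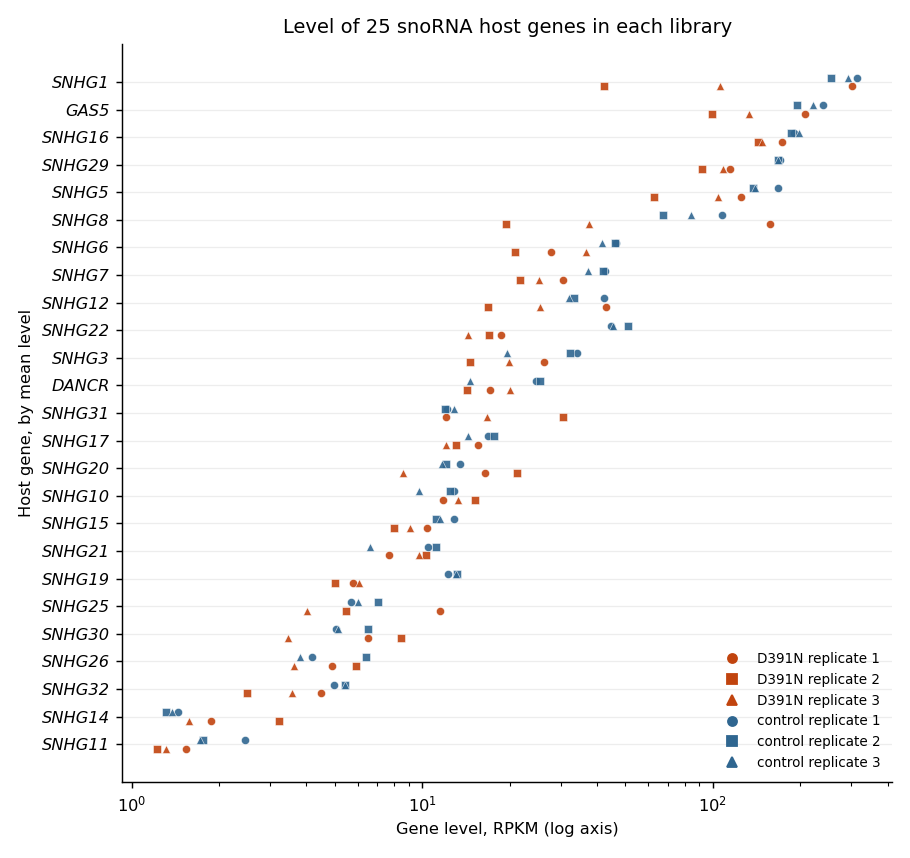
Gene level in RPKM (log axis) of the 25 tested host genes, ordered by mean level, with 1 point per library, D391N in orange and control in blue, and the replicate given by the shape. SNHG22, SNHG19 and SNHG29 show 2 separate groups, whereas for SNHG1 and SNHG8 the D391N replicates 1 and 2 lie far apart.

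SNHG22 (ENSG00000267322; chromosome 18, 49814023 to 49851059 in RefSeq GRCh38.p14) is the host of scaRNAs that guide modification of spliceosomal snRNA. The D391N replicates 1, 2 and 3 held it at 18.6, 17.0 and 14.4 RPKM, and the control replicates at 44.7, 51.1 and 45.2 RPKM. Values are given in this order of replicates throughout. The groups did not overlap, and the means were 16.7 ± 2.11 and 47.0 ± 3.58 RPKM (SD, n = 3). The log2 fold change was -1.49 (SE 0.15), or 2.81-fold lower, with an adjusted p of 0.0355 in limma. Leaving out D391N replicate 1 gave an adjusted p of 0.0113. Leaving out any other single library gave 0.0746 to 0.224, with log2 fold changes between -1.53 and -1.39. The adjusted p also missed the threshold with median centring (0.0515), without trend (0.0557), with a filter at 0.1 RPKM (0.0559), at 5 RPKM (0.0506) or absent (0.0659), and with a replicate block (0.123).

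Nearly the whole of that level, 96.6%, was assigned to ENST00000615535, a transcript of 1 exon and 490 nt. Its exon wholly encloses the annotated SCARNA17 and SCARNA18. RefSeq places a SCARNA17 of 421 nt at the same first base as SNHG22, and the first 50 bases of SNHG22 in RefSeq were found at position 59 of this transcript. The value therefore counts reads that cannot be assigned to the host RNA rather than to the scaRNA. ENST00000615535 was at 17.9, 14.8 and 13.8 RPKM in D391N and 44.1, 50.01 and 43.9 RPKM in control, from about 133, 108, 146, 434, 589 and 324 reads by the posterior variance. Its log2 fold change among transcripts was -1.57 (SE 0.23), with an adjusted p of 0.0786. The only transcript of SNHG22 with more than 1 exon, ENST00000589499, was at 0.0145 to 0.129 RPKM and was not tested.

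SNHG19 (ENSG00000260260; chromosome 16, 2154782 to 2155358), a short host with 1 listed transcript of 2 exons, holds SNORD60. It was at 5.80, 5.03 and 6.08 RPKM in D391N and at 12.3, 13.1 and 13.0 RPKM in control. The groups were as clearly apart as those of SNHG22, with means of 5.64 ± 0.544 and 12.8 ± 0.456 RPKM (SD, n = 3). The log2 fold change was -1.18 (SE 0.15), and its adjusted p of 0.0516 lay just above the threshold. It passed with a pseudocount of 1 RPKM (0.0446), with array weights (0.0400), without D391N replicate 1 (0.0207) and in sums without retained-intron transcripts (0.0478), the last chosen after seeing the data.

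**Figure D2:**
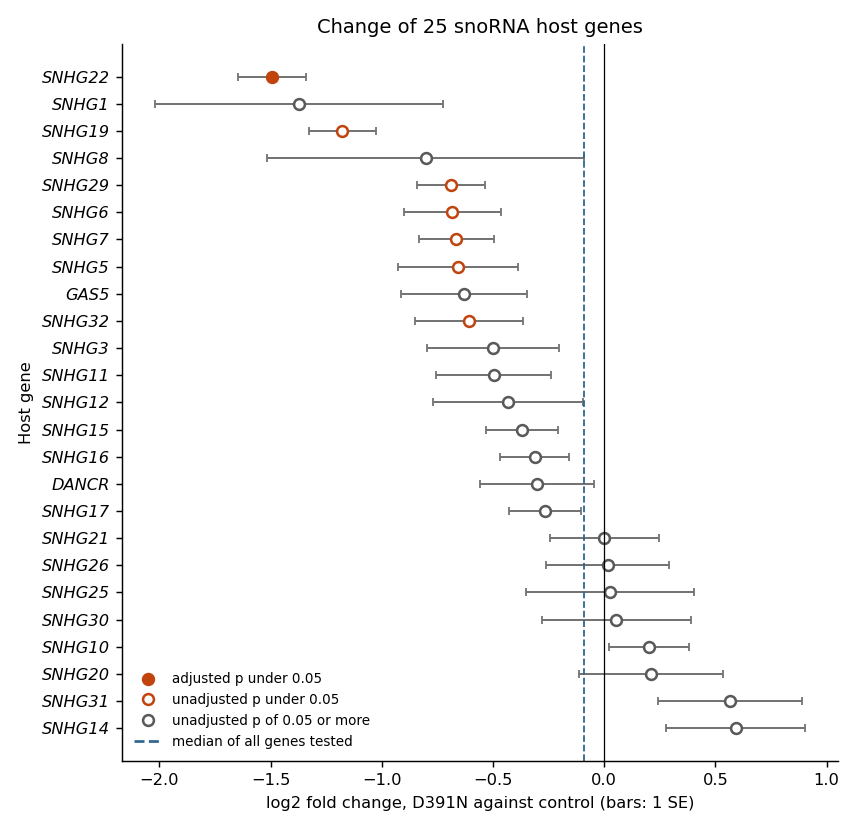
log2 fold change of D391N against control for the 25 tested host genes, with bars of 1 SE from limma, where filled points have an adjusted p under 0.05 and orange outlines an unadjusted p under 0.05. SNHG22 is the 1 filled point at -1.49, 7 hosts lie above 0, and the dashed line marks the median of all genes at -0.09.

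The 8 most abundant hosts made up 81.7% of the summed level of all members. SNHG1, the host of SNORD22 and of SNORD25 through SNORD31, was the highest. It was at 301, 42.2 and 106 RPKM in D391N and 315, 255 and 292 RPKM in control. D391N replicate 1 lay within the controls and replicate 2 lay far below them, so that the SD of 135 RPKM nearly equalled the D391N mean of 150 RPKM. The log2 fold change was -1.37 (SE 0.65, adjusted p = 0.256).

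GAS5, named for its accumulation in growth-arrested cells and host to SNORD44, SNORD47 and SNORD74 through SNORD81, was at 208, 99.5 and 134 RPKM in D391N and 240, 194 and 221 RPKM in control. It overlapped between the groups through D391N replicate 1, with a log2 fold change of -0.63 (SE 0.28, adjusted p = 0.24). SNHG8, the host of SNORA24, was at 158, 19.4 and 37.4 RPKM in D391N and 108, 67.6 and 84.0 RPKM in control. D391N replicate 1 was above every control and the other D391N libraries were below every control, giving -0.80 (SE 0.71, adjusted p = 0.534). In SNHG1, GAS5 and SNHG8 alike the D391N libraries stood in the order replicate 1, 3, 2. Among the other abundant hosts given below, SNHG29, SNHG16, SNHG5 and SNHG7 had this order too, and SNHG6 did not. It is also the order of these libraries in the share of reads from transcripts under 200 nt. The part of that share in these values was not tested.

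The other abundant hosts differed less between D391N replicates. SNHG29, which holds SNORD49A, SNORD49B and SNORD65, was at 114, 91.8 and 109 RPKM in D391N and 170, 167 and 168 RPKM in control. Every D391N library was lower, with means of 105 ± 11.6 and 168 ± 1.35 RPKM (SD, n = 3) and a log2 fold change of -0.69 (SE 0.15, adjusted p = 0.0972). SNHG16, host of SNORD1A to SNORD1C, was at 173, 143 and 148 RPKM in D391N and 191, 186 and 198 RPKM in control. Here too the groups were apart, but the difference was small, at -0.31 (SE 0.15, adjusted p = 0.274).

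SNHG5, which holds SNORD50A and SNORD50B, was at 125, 63.0 and 104 RPKM in D391N and 167, 138 and 139 RPKM in control. SNHG6, which holds SNORD87, was at 27.8, 20.9 and 36.7 RPKM in D391N and 46.6, 46.1 and 41.4 RPKM in control. SNHG7, which holds SNORA17A and SNORA17B, was at 30.6, 21.7 and 25.2 RPKM in D391N and 42.6, 42.1 and 37.1 RPKM in control. In all 3 every D391N library was below every control library, with log2 fold changes of -0.66 for SNHG5, -0.68 for SNHG6 and -0.66 for SNHG7. Their adjusted p values in limma were 0.214, 0.152 and 0.113.

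Among the less abundant hosts, SNHG32 (-0.61), SNHG3 (-0.50), SNHG11 (-0.50), SNHG12 (-0.43), SNHG15 (-0.37), DANCR (-0.30) and SNHG17 (-0.27) had negative log2 fold changes, none past the threshold. SNHG21, SNHG26, SNHG25 and SNHG30 lay between -0.00087 and 0.06, and each of these 4 changed sign under some of the settings tried. SNHG10 (0.20) and SNHG20 (0.21) were slightly above 0, and SNHG20 was at -0.064 without D391N replicate 2. The highest value belonged to SNHG14, the long transcript of the imprinted region that holds the SNORD115 and SNORD116 clusters and runs antisense to UBE3A. It was at 1.87, 3.23 and 1.57 RPKM in D391N and 1.44, 1.31 and 1.38 RPKM in control, all 3 D391N libraries being above the controls, with a log2 fold change of 0.59 (SE 0.31, adjusted p = 0.301). None of the 23 transcripts of SNHG14 averaged 1 RPKM, so that its level is a sum of low values. SNHG31 was next, at 12.1, 30.4 and 16.7 RPKM in D391N and 12.2, 12.03 and 12.9 RPKM in control, and D391N replicate 1 lay within the control range there (log2 fold change 0.56, SE 0.32, adjusted p = 0.338). In SNHG14 and SNHG31, D391N replicate 2 was the highest library, whereas in SNHG1, GAS5 and SNHG8 it was the lowest. Without it SNHG14 was at 0.30 and SNHG31 at 0.20. SNHG9, SNHG28, SNHG27 and SNHG18 averaged under 1 RPKM and were not tested.

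The number of calls depended on D391N replicate 1. Without it, 14 of 25 hosts had an unadjusted p under 0.05, against 31.1% of all genes. An adjusted p under 0.05 was then reached by 7 of 25 hosts, all lower in D391N, against 10.9% of all genes. These were SNHG22, SNHG19, SNHG1 (-2.10, adjusted p = 0.0312), SNHG7 (-0.79, 0.0327), SNHG29 (-0.75, 0.0339), SNHG8 (-1.65, 0.0365) and GAS5 (-0.92, 0.0396). Without D391N replicate 2, which had the fewest short-transcript reads, no host passed, the median of the 25 was -0.26, and the log2 fold changes of SNHG1, GAS5 and SNHG8 were -0.68, -0.38 and -0.14. The values of SNHG22 and SNHG19 without D391N replicate 2, -1.51 and -1.10, stayed close to those with it. In bulk RNA, fewer cells with an RNA and less of that RNA per cell cannot be told apart.

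At the level of transcripts, 104 of the 250 passed the filter on low values. By the posterior variance, 120 of the 250 had an estimate under 3 reads in every library. That estimate is also low where reads divide uncertainly among isoforms, so it does not by itself show a lack of reads. None of the 104 was called by limma, where the test called 33 of 54671 transcripts (0.0604%), and 26 of them (25%) had an unadjusted p under 0.05, against 17.6% of all transcripts. Of these 26, 21 were lower and 5 higher in D391N. In 22 of the 104 (21.2%) all D391N libraries were below all controls, against 15.6% of all transcripts, and in 4 all were above, against 10.1%. Without D391N replicate 1 there were 15 calls among the 104, against 9.07% of all transcripts.

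The transcripts of SNHG29 did not all lie on the same side of the controls. Its most abundant one, the 6-exon ENST00000584926, was at 29.3, 39.9 and 46.0 RPKM in D391N and 30.9, 26.2 and 20.4 RPKM in control. ENST00000475947, with 5 exons, was at 7.96, 1.91 and 4.81 RPKM in D391N and 30.5, 27.1 and 27.6 RPKM in control, a log2 fold change of -2.73 (SE 0.50, adjusted p = 0.104). The share of ENST00000584926 in the SNHG29 sum was thereby 25.7%, 43.5% and 42.4% in D391N and 18.2%, 15.7% and 12.2% in control. Its means were 37.2 ± 9.97% and 15.3 ± 3.03% (SD, n = 3), and the two-sided exact permutation p was 0.1, the smallest that 3 libraries against 3 allow.

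SNHG6 was the only other host of the 8 whose share of the top transcript did not overlap. ENST00000520944 made up 29.2%, 26.3% and 37.3% of SNHG6 in D391N and 47.1%, 44.5% and 50.5% in control (exact permutation p = 0.1). In SNHG16 the shares were nearly equal, with 60.6 ± 2.73% in D391N and 59.8 ± 2.26% in control for ENST00000587838 (SD, n = 3; exact permutation p = 0.6). For SNHG1, GAS5, SNHG5, SNHG7 and SNHG8 the shares overlapped between the groups, with exact permutation p values between 0.2 and 0.7. BitSeq divides reads among isoforms, so that transcripts of 1 gene depend on each other. A minor SNHG16 transcript, ENST00000586942, was at 3.77, 9.30 and 5.64 RPKM in D391N and 0.416, 1.46 and 0.128 RPKM in control (log2 fold change 3.38, SE 0.73, adjusted p = 0.129). By the posterior variance it rested on about 13.0, 29.8, 15.5, 2.91, 8.44 and 0.712 reads.

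**Figure D3:**
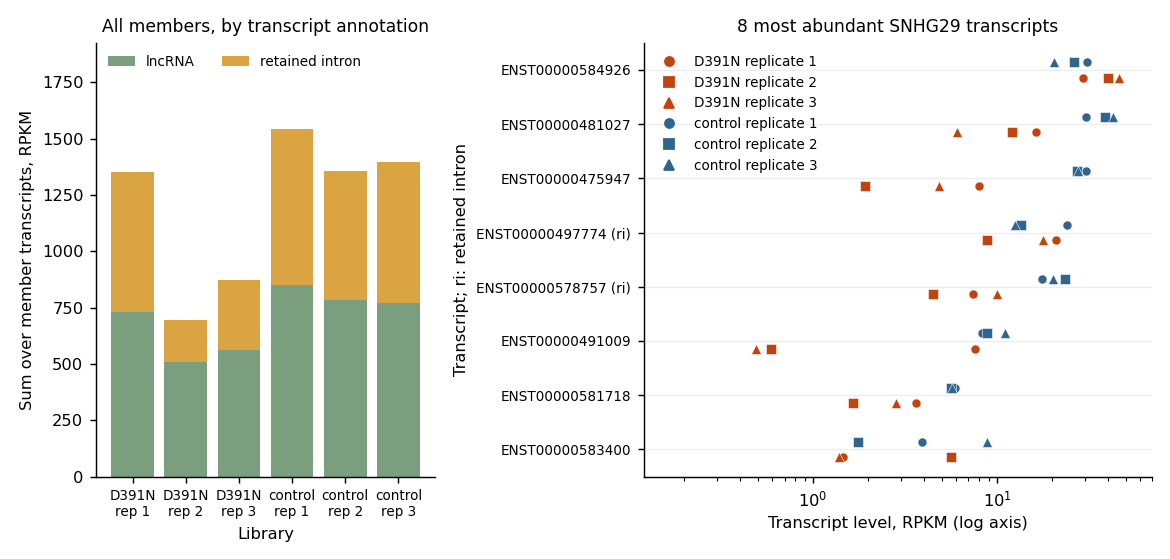
Left, summed level in RPKM of member transcripts annotated as lncRNA (green) and as retained intron (yellow), stacked, in each library. Right, level in RPKM (log axis) of the 8 most abundant SNHG29 transcripts with 1 point per library, where ENST00000584926 is higher in D391N replicates 2 and 3 than in every control and ENST00000475947 is lower in all 3 D391N libraries.

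The most abundant transcripts of SNHG1 and GAS5 are annotated as retained intron, that is, they keep intron sequence. RefSeq places 9 snoRNAs inside SNHG1 and 11 inside GAS5, none of them matched to the measured transcripts. Whether these retained-intron transcripts enclose some of them, and so count snoRNA reads, was not tested. ENST00000537024 of SNHG1 was at 187, 14.4 and 42.4 RPKM in D391N and 197, 175 and 156 RPKM in control. ENST00000443799 of GAS5 was at 79.4, 9.24 and 23.9 RPKM in D391N and 73.9, 32.6 and 70.2 RPKM in control. Both were within or above the control range in D391N replicate 1 and below it in replicates 2 and 3. Summed over all members, the 56 retained-intron transcripts were at 624, 186 and 312 RPKM in D391N and 692, 574 and 626 RPKM in control. The 190 transcripts annotated as lncRNA were at 729, 509 and 560 RPKM in D391N and 849, 782 and 770 RPKM in control, so that here all D391N libraries were lower. Retained-intron transcripts took 46.1%, 26.8% and 35.8% of the member sum in D391N and 42.3% to 44.9% in control. Gene sums without them (chosen after seeing the data) moved the log2 fold change of several hosts. SNHG1 (-0.38), GAS5 (-0.35), SNHG5 (-0.36) and SNHG3 (-0.20) were then each higher than with them. SNHG12 (-1.28), SNHG6 (-0.90) and SNHG17 (-0.77) were each lower than with them.

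The snoRNAs that could be matched to the measured transcripts were 94 inside the hosts, 72 of them in SNHG14. Those of SNHG1, GAS5, SNHG5, SNHG6, SNHG7, SNHG8, SNHG9, SNHG15, SNHG20, SNHG21 and SNHG29 could not be matched by identifier and were not analysed here. Matching was partial in other hosts. RefSeq places 4 snoRNAs in SNHG12, 3 in SNHG16, 2 in SNHG3 and 2 in SNHG11, and 1 was matched in each. In SNHG17 it places 5, with 4 matched, and in SNHG14 it places 84, with 72 matched. Of the 94, 19 averaged at least 1 RPKM, none of them in SNHG14. Their median log2 fold change was -1.87, 18 of 19 being negative, whereas their hosts lay between -1.49 and 0.56. The 285 other tested snoRNAs and scaRNAs, called outside the hosts here, had a median of -1.42, with 243 of them negative. They are those not matched to a host, so that unmatched snoRNAs of the hosts may be among them. No snoRNA inside a host passed the threshold in limma, and 8 of 19 (42.1%) had an unadjusted p under 0.05, all lower, against 17.6% of all transcripts and 35.4% of the snoRNAs outside the hosts. In 7 of 19 (36.8%) every D391N library was below every control, as in 15.6% of all transcripts and 31.6% of the snoRNAs outside the hosts. Without D391N replicate 1, 11 of the 19 passed, against 9.07% of all transcripts. In 15 of the 19 both remaining D391N libraries were below every control, against 26% of all transcripts. No such counts are given for the snoRNAs outside the hosts. The 820 of those, tested or not, summed to 60940, 5831 and 16978 RPKM in D391N and 63454, 43463 and 60692 RPKM in control. They too were below every control in D391N replicates 2 and 3. Without D391N replicate 2, none of the 19 passed and their median was -1.09.

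SNORD93, a C/D snoRNA in an intron of SNHG26, had the lowest log2 fold change, -4.09 (SE 0.97, adjusted p = 0.146). It was at 43.2, 2.35 and 7.65 RPKM in D391N and 157, 116 and 222 RPKM in control. Its host SNHG26 was at 4.91, 5.93 and 3.61 RPKM in D391N and 4.19, 6.39 and 3.81 RPKM in control, with overlapping groups. SNORD93 was thus lower in every D391N library while its host was not. Its log2 fold change was -5.19 (adjusted p = 0.00918) without D391N replicate 1 and -3.12 (adjusted p = 0.202) without D391N replicate 2.

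SNORD60 was at 620, 33.3 and 126 RPKM in D391N and 697, 595 and 885 RPKM in control (log2 fold change -2.38, SE 0.97, adjusted p = 0.275). Without D391N replicate 1 this was -3.47 (adjusted p = 0.0237) and without replicate 2 it was -1.36 (adjusted p = 0.445). Its D391N replicate 1 lay within the control range and replicate 2 was the lowest library, whereas all 3 D391N libraries of its host SNHG19 lay below the controls. SNORD104 was at 776, 45.8 and 106 RPKM in D391N and 784, 482 and 1089 RPKM in control, whereas its host SNHG25 overlapped between the groups at 0.03 on the log2 scale. SNORD99 in SNHG12 was at 173, 6.27 and 102 RPKM in D391N and 495, 402 and 527 RPKM in control, all D391N libraries being lower.

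The H/ACA snoRNAs included some of the most abundant ones. SNORA71D in SNHG17 was at 856, 36.0 and 190 RPKM in D391N and 1082, 587 and 960 RPKM in control. SNORA73B in SNHG3, the U17 snoRNA that takes part in pre-rRNA cleavage, was at 509, 42.4 and 96.2 RPKM in D391N and 563, 385 and 471 RPKM in control. SNORA26 in DANCR was at 73.7, 1.06 and 30.4 RPKM in D391N and 81.0, 104 and 95.0 RPKM in control. In these 3 as well, D391N replicate 1 was near the controls and replicate 2 the lowest library. SNORA71C and SNORA71D share 85.8% of their positions, and SNORA60 in SNHG11 shares 81.3% with SNORA71D, so that reads divided among these copies leave their single values uncertain.

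Over the 19 snoRNAs, the median level relative to the mean of the controls was 0.824, 0.0898 and 0.217 in D391N replicates 1, 2 and 3 and between 0.82 and 1.07 in the controls. The order of the D391N libraries was that of their share of short-transcript reads, given above. That share counts all transcripts below its length limit, so the snoRNAs shorter than this limit are themselves part of it. The matching order is therefore not independent of the snoRNA values, and the part of the share in those values was not tested. SCARNA13 in SNHG10, at 275 nt longer than that limit, was at 63.4, 19.9 and 35.0 RPKM in D391N and 93.0, 78.2 and 83.9 RPKM in control. Its groups did not overlap (log2 fold change -1.26, SE 0.43, adjusted p = 0.221). The log2 fold change was -1.68 (adjusted p = 0.0294) without D391N replicate 1 and -0.85 (adjusted p = 0.324) without D391N replicate 2. SNHG10 itself was at 11.8, 15.2 and 13.3 RPKM in D391N and 12.9, 12.5 and 9.75 RPKM in control.

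**Figure D4:**
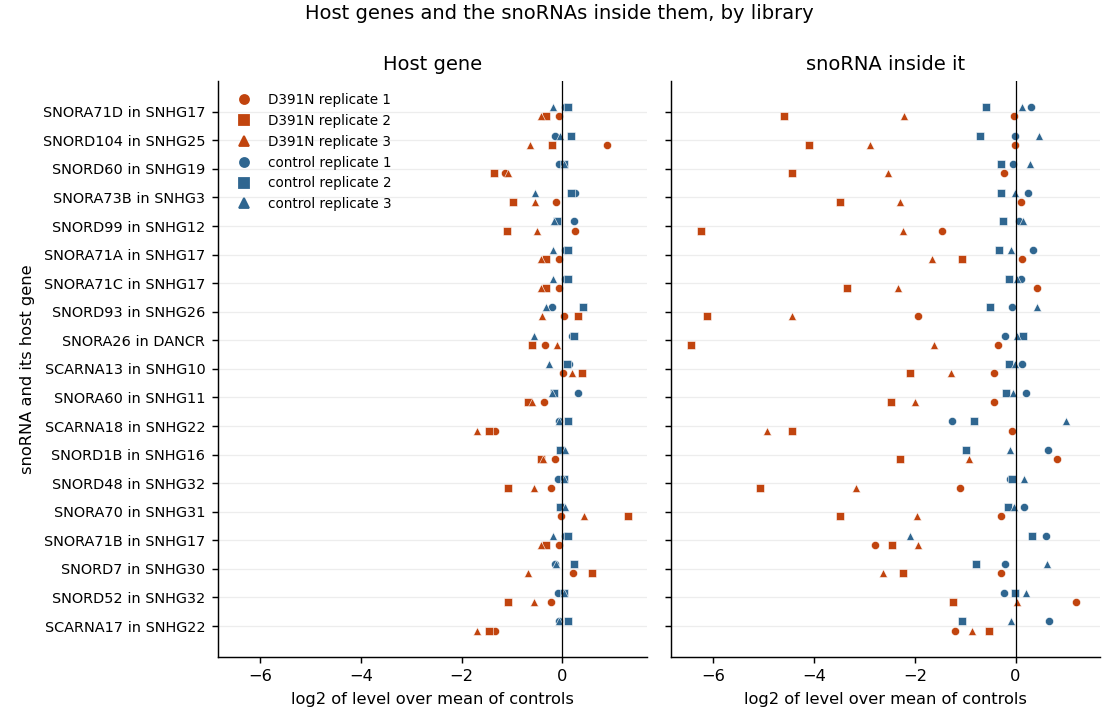
log2 of the level in each library over the mean of the controls, for the host gene (left) and for the snoRNA inside it (right), for the 19 tested snoRNAs ordered by mean level. D391N replicate 2 (square) lies at the left of most snoRNA rows, where the median ratio was 0.0898, while the hosts span log2 fold changes of -1.49 to 0.56.

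The proteins that act on these RNAs were described by lists. Of the 8 core proteins of snoRNPs none passed the threshold, and their median log2 fold change was -0.04, against -0.09 for all genes. Fibrillarin (FBL), the methyltransferase of C/D snoRNPs, was at 161, 125 and 119 RPKM in D391N and 262, 310 and 274 RPKM in control (-1.08, SE 0.18, adjusted p = 0.0721). NOP58, its C/D partner, was at 167, 307 and 249 RPKM in D391N and 148, 156 and 142 RPKM in control (0.65, SE 0.24, adjusted p = 0.186). The groups were apart for both proteins, in opposite directions. The 10 assembly factors had a median of 0.27 and the 16 genes of nonsense-mediated decay and the exon junction complex a median of -0.0027, with no call in either list. UPF1, the helicase of nonsense-mediated decay, was at 14.4, 19.4 and 13.1 RPKM in D391N and 17.7, 19.999 and 16.0 RPKM in control, with overlapping groups.

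Of the 35 protein-coding snoRNA hosts on the list, none passed either. Their median was -0.16, and 22 of 35 were negative, against 18 of 25 for the non-coding hosts and 57.3% of all genes. In 14 of the 35 (40%) every D391N library was below every control, against 20.7% of all genes. RPS2, a ribosomal protein gene that hosts snoRNAs, had the lowest value, at 517, 398 and 400 RPKM in D391N and 1172, 949 and 1092 RPKM in control (-1.29, SE 0.22, adjusted p = 0.0729). WDR43 had the highest, at 0.85 (adjusted p = 0.26), with D391N replicate 2 as its highest library.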

How the data were processed

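Reads of rRNA-depleted total RNA were trimmed by the authors (cutadapt), aligned to the Ensembl transcripts of GRCh38 (hg38 per the labels) using Segemehl, and turned into transcript levels by BitSeq. Tool versions are not given in the sources used here. Each deposited level is a posterior mean on the natural log scale of RPKM, and comes with a variance, used here only to estimate reads. Values were exponentiated and summed per gene. log2(RPKM + 0.1) of features averaging at least 1 RPKM was compared with limma 3.58.1 (trend, Benjamini-Hochberg) in R 4.3.3. A fold change on this scale understates that of low genes. In simulated data with 200 of 20714 genes changed, 59% of changes of 2 (log2) and 0% of changes of 1 were called. Reads were taken as 1 over the variance. Where reads divide among isoforms, the variance holds that uncertainty too, and the estimate can fall below the true number. In D391N replicate 1, ENST00000425653 of DANCR (1059 nt) had 0.945 RPKM and 0.731 estimated reads. ENST00000623036 of the same gene (748 nt) had 2.10 RPKM and 35.9 estimated reads. Symbols were found for 88.2% of gene identifiers. The members, lists and the rule for named genes (hosts at 1 RPKM or more, with library values for the 8 highest, those called and those with the highest and lowest fold change) were chosen with earlier results of these data known. SNHG31 and the transcripts, list genes and snoRNAs outside that rule were picked with their values in view. Alternatives were other pseudocounts, filters, scalings, a replicate block, array weights and each library left out. Figures used Python 3.11.15 and matplotlib 3.10.9.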

Additional observations from a re-analysis of the deposited data

How the results depend on the processing

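The number of hosts called at gene level, 1 in the analysis reported, was 2 with a pseudocount of 1 RPKM, with array weights and in sums without retained-intron transcripts (chosen after seeing the data). None was called with the filter at 0.1 RPKM, at 5 RPKM or absent (0), with median centring and in limma without trend, and between 0 and 7 with a library left out. The adjusted p of SNHG22 ran from 0.0113 to 0.224 over all alternatives. The median log2 fold change of the hosts was -0.21 with median centring and that of their transcripts -0.12 with no filter on low values. With the filter at 0.1 RPKM or absent, all 94 snoRNAs were included, and the median of the 94 was 0.22. The 72 of them in SNHG14 were each under 1 RPKM, with under 1 read in every library by the posterior variance. That median therefore rests mostly on values with hardly any reads. With a library left out, 0 to 15 host transcripts and 0 to 11 snoRNAs were called, the highest numbers without D391N replicate 1, when 9.07% of all transcripts were called. Hosts and snoRNAs lower in every D391N library numbered 10 to 16 and 7 to 15 with a library left out (chosen after seeing the data), while the share over all genes was 23.8% to 30% and over all transcripts 18.2% to 26%. The highest numbers came without D391N replicate 1, and 12 snoRNAs without control replicate 2.

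Signs turned for 5 hosts near 0. Array weights gave -0.19 for SNHG26, -0.031 for SNHG25 and -0.13 for SNHG30, and SNHG21 was at 0.22 with median centring and 0.18 with quantile normalization. Leaving out a library gave -0.15 to 0.24 for SNHG26, -0.064 to 0.58 for SNHG20, -0.23 to 0.14 for SNHG21, -0.40 to 0.35 for SNHG25 and -0.22 to 0.41 for SNHG30. The difference in the share of the top transcript, D391N minus control, ran with a library left out from -12.9 to 1.55 percentage points for GAS5, -0.50 to 2.26 for SNHG16 and -1.61 to 11.5 for SNHG5, and kept its sign for the other 5 hosts.

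The labels do not say whether replicate numbers pair the libraries. Same-numbered deviations correlated at 0.07, 0.22 and -0.11, which cannot settle it. With a replicate block, 0 hosts and 2 of all genes were called.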
